A study of Mus musculus with 8 samples.

Results

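Lyz1 and Lyz2 are neighbouring mouse genes that encode lysozyme, the enzyme that cuts the peptidoglycan wall of bacteria. Lyz2, or M lysozyme, is the form known from macrophages, monocytes and neutrophils, which store and secrete it, whereas Lyz1, or P lysozyme, is best known from the Paneth cells of the small intestine. Lyz2 has a further role in this study, since its regulatory region drives the Cre recombinase of LysM-Cre mice, in which the Cre coding sequence stands at the start codon of Lyz2 and disrupts the allele that carries it.

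The expression of both genes was examined in RNA-seq data of myeloid cells sorted from spleens. The cells came from wt mice and from LmnaMyeKO animals, whose floxed Lmna gene is recombined by LysM-Cre. The 2 genes were chosen by their symbols, as the rows Lyz1 and Lyz2 out of the 23084 gene rows of the deposited table. The choice was made with the authors' measured difference between genotypes for these genes known, and that difference is neither given nor tested here. The 8 samples were CD11b+Ly6C+ monocytic cells and CD11b+Ly6G+ granulocytic cells of each genotype, with 2 samples in each of 4 groups, all from the spleens of C57BL/6 mice of 6 to 8 weeks. The subset was read from the sample titles, because the label for cell markers reads CD11b+Ly6C+ throughout, also where the title says Ly6G. In the lamin A/C-deficient groups Lmna is floxed and a Lyz2 allele carries Cre, but the number of such Lyz2 alleles per mouse, whether the wt mice carried Cre, and the tumor status of the RNA-seq mice are not given in the sources used here. Deletion by LysM-Cre is limited to cells in which the Lyz2 regulatory region is or was active, and to their descendants.

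The deposited table holds 1 level per gene, the authors' mean of counts divided by a size factor for each sample. Which samples were averaged was worked out from the low end of the table. A mean of whole counts can take only certain values when counts are small, and all 2167 rows with a mean below 0.6 were sums of whole counts from 8 samples, each count weighted by its sample, to within 2e-08. The mean of Lyz1 and of Lyz2 therefore covers both subsets and both genotypes. It has no spread over samples, so no level is given per group and no difference between groups was tested. The recovered size factors, by which the counts of each library were divided, ran from 0.796 to 1.05 in 7 samples and reached 1.91 in the other. Nothing in the table ties a factor to a sample. The table gives no other measure of depth per sample. The paper's methods give only a range of reads over the samples. In proportion it is narrower than that of the size factors, so the factors do not follow read number alone.

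Lyz2 was among the most abundant transcripts of these cells, and Lyz1 was present at a small share of its level. The mean normalized count was 104132 for Lyz2 and 476 for Lyz1. Divided by the length of the annotated transcript, 1316 bases for Lyz2 and 1263 bases for Lyz1, the levels were 79128 and 377 per kb, so that Lyz2 stood 210-fold above its neighbour. Lyz1 made up 0.455% of the summed mean count of both genes. These values include the lamin A/C-deficient groups, in which a Lyz2 allele carries Cre. They also rest on the division by RSEM of reads that match both genes, which is described below.

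Among 23004 rows with an annotated length, Lyz2 ranked 16 and Lyz1 ranked 3873 by level per kb. Of these rows, 83.2% lay below Lyz1 and 15 lay above Lyz2. The median row had a level of 23.4 per kb, below both lysozyme genes. Lyz2 alone took 0.413% of the summed mean counts of all rows, and Lyz1 took 0.00189%. On the scale of the mean count, not divided by length, Lyz2 also ranked 16, directly below Actg1, a cytoplasmic actin, and above Retnlg, a product of neutrophils. On that scale Lyz1 ranked 6414, between Ccdc59 and Zfp821. With 1 mean per gene, whether genes next to each other in these orders differ beyond their spread over samples could not be examined.

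The table also sets limits on the counts behind the means. The 8 normalized counts of Lyz1 sum to 3811. With the recovered weights, the counts of Lyz1 summed to between 3035 and 7291 and those of Lyz2 to between 663351 and 1593853. The ends of each range are the cases in which all counts came from a single library. The counts are estimates by RSEM, which divides reads that match both genes, so the ranges do not bound the reads observed from each gene. These limits cover the arithmetic of the mean and not the spread between animals.

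The 2 genes lie on chromosome 10 of mm10, both on the minus strand. Lyz2 (ENSMUSG00000069516) runs from 117277331 to 117282321 and Lyz1 (ENSMUSG00000069515) from 117287797 to 117292868, with 5475 bases between them. GENCODE M21 gives each a single transcript of 4 exons with 447 coding bases, stop codon included. Their coding sequences could be laid against each other without a gap and differed at 22 of 447 bases, an identity of 95.1%. Of 148 codons, 18 differed, and 12 of these encode another amino acid in Lyz1 than in Lyz2, while 6 encode the same one. Of the 22 differing bases, 14 were transitions and 8 were transversions.

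The differences were crowded into the first exon, which holds 14 of the 22. The coding part of exon 1 is shown because reads from it tell the genes apart most easily, and because it begins with the start codon at which Cre is inserted in the LysM-Cre allele of Lyz2. The sequences are those of the annotated transcripts, 5′ to 3′ on the minus strand, with the differing bases in capitals. The Lyz1 stretch lies at chr10:117292703-117292838 and the Lyz2 stretch at chr10:117282107-117282242.
Lyz1: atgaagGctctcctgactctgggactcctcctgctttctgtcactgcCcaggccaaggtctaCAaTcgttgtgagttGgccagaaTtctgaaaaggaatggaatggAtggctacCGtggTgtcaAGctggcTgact
Lyz2: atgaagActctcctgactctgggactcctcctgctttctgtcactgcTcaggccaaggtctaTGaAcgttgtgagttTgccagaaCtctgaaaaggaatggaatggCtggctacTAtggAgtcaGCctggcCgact

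Exon 2 held 6 differing bases among 165, exon 3 held 0 among 79, and the coding part of exon 4 held 2 among 67. The longest stretch without any difference is shown as the counterpart of exon 1. It spans the end of exon 2, all of exon 3 and the beginning of exon 4, from coding base 276 to coding base 393, and its 118 bases are the same in both genes.
Lyz1 and Lyz2: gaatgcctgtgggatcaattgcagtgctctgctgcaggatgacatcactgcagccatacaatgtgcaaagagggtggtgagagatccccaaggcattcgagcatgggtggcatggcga

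A read that falls wholly within such a stretch cannot be assigned to either gene from its bases. Of the 373 windows of 75 coding bases, 44 held no differing base and 147 held at most 2, while the window richest in differences held 12. The median window held 3.

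**Figure D1:**
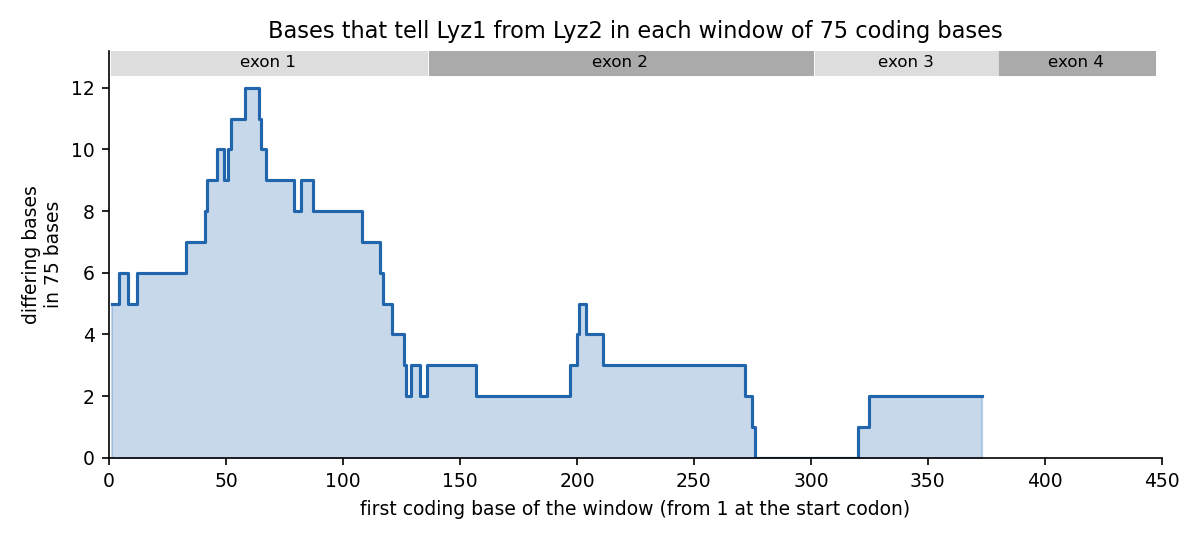
Number of bases that differ between Lyz1 and Lyz2 in each window of 75 coding bases, plotted at the first base of the window, with the exons marked along the top. Windows that begin in exon 1 reach 12 differences, and 44 windows that begin near the end of exon 2 and in exon 3 have none.

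Over the whole transcripts, untranslated regions included, 5.96% of the start positions of 75-base runs in Lyz2 had the same run somewhere in Lyz1, which is 74 of 1242. For Lyz1 the value was 6.22%, or 74 of 1189. Of these 74 shared runs, 44 lay within the coding sequence and 30 within the 3′ untranslated region. The read length is not given in the sources used here, so the search was repeated with other lengths. The share of Lyz2 runs found in Lyz1 was 15.4% at 50 bases, 1.97% at 100 bases and 0% at 150 bases. No run of 50 bases from either gene occurred in a transcript of any other gene among 141767 annotated transcripts.

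**Figure D2:**
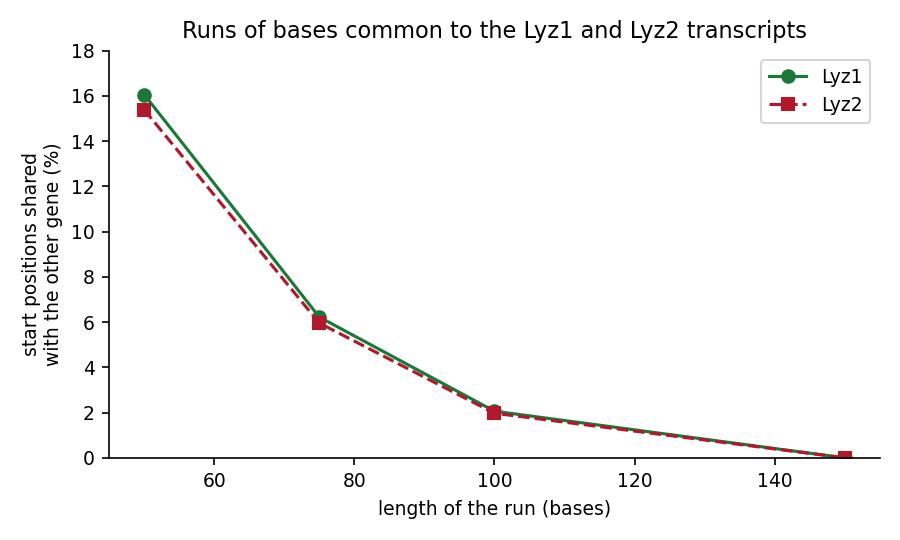
Percent of start positions in the Lyz1 (circles) and Lyz2 (squares) transcripts from which a run of the given length, in bases, is found unchanged in the other gene. Both curves fall from about 16% at 50 bases to 0% at 150 bases.

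The shared runs were set against the levels of the genes. The whole Lyz1 level equals 0.457% of the Lyz2 level on the scale of the mean count. Under even coverage of the transcript, the 5.96% of Lyz2 runs that are shared at 75 bases correspond to a mean count of 6204, against the mean count of 476 for the whole of Lyz1. At 50 bases the value for Lyz2 was 33.6 times the Lyz1 mean, at 100 bases 4.31 times, and at 150 bases 0. These values treat each count as a single read of the given length, and paired reads were not considered. The authors' quantification by RSEM divides reads that match both genes by estimation, and how much of the Lyz1 level came from such reads was not tested.

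The promoter regions of the 2 genes were compared as well. Whether their differences bear on the levels was not tested. The RefSeq windows of 300 bases (GRCm38.p6, the assembly of mm10) reach from 250 bases before to 50 bases after the start that RefSeq gives. For Lyz1 that start, 117292868, is the GENCODE start. For Lyz2 it is 117282272, which lies 49 bases downstream of the GENCODE start, so distances are counted from the RefSeq start. Aligned with gaps, they were identical in 82.5% of 302 columns. Around the start itself, from 50 bases before to 50 after, 99.0% of the bases were identical, with 1 difference. From 150 to 51 bases before the start the identity was 84.2%, and in the 100 bases farther upstream it was 64.4%. The upstream 200 bases of each window are shown since they hold nearly all the differences, with bases that differ or face a gap in capitals. They lie on the minus strand at chr10:117292919-117293118 for Lyz1 and chr10:117282323-117282522 for Lyz2.
Lyz1: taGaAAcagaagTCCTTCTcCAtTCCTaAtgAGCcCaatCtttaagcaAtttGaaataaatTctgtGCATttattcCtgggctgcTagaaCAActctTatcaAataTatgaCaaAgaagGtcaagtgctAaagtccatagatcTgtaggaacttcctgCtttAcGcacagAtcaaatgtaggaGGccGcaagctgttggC
Lyz2: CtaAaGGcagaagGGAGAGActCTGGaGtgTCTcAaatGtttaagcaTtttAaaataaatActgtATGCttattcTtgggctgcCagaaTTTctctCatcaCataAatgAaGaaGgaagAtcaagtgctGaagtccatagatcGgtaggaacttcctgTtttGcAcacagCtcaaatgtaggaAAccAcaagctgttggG

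The windows were searched on both strands for short motifs of factors known to act on myeloid promoters. The PU.1 motif AGGAAGT occurred once in each window, 100 bases before the start, and in 9.35% of 32851 promoter windows of the same length. The sequence TTAAATA, which resembles a TATA box, also occurred in each, 28 bases before the start, against 4.51% of all windows. The C/EBP motif TTGCNNAA was found in the Lyz1 window, 209 bases before the start, and not in that of Lyz2, against 10.8% of all windows. The RUNX motif TGTGGT was found in the Lyz2 window, 66 bases before the start, and not in that of Lyz1, against 16.8% of all windows. The GFI1 motif AAATCA was found in neither window, against 14.0% of all windows. A match describes letters in this window and is not evidence of binding.

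A list of 7 genes for myeloid regulators of Lyz2, most of them encoding factors of these motif families, was set beside the lysozyme genes, and none reached Lyz2. Spi1, which encodes PU.1, the leading activator of macrophage and granulocyte genes, had a level of 6124 per kb, 0.0774 of that of Lyz2. Cebpb and Cebpe, which encode C/EBP factors of myeloid differentiation, had levels of 2111 and 1952 per kb, and Cebpa, which acts earlier in the granulocyte-monocyte lineage, had 299 per kb. Gfi1, a repressor that favors granulocytes, had 99.2 per kb, Runx1 202 per kb and Myb, a factor of progenitor cells, 204 per kb. Of these 7 genes, 3 lay above the level of Lyz1 and 4 below it.

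Of the 14 genes annotated within 200 kb of either lysozyme gene, 5 had a row, including Lyz1 and Lyz2. The remaining 9, among them the protein-coding gene 9530003J23Rik and the pseudogene Gm10936 between Yeats4 and Lyz2, were not analysed here. Every row with a mean below 0.6 had counts in at least 2 samples. Cpsf6, which encodes a subunit of the mRNA cleavage factor, is the nearest measured gene upstream of Lyz1 and had a level of 295 per kb. Yeats4, a reader of acetylated histones on the other side, had 705 per kb, and Frs2, an adaptor of growth factor receptors, had 138 per kb. Lyz1, at 377 per kb, lay within the range of these 3 neighbours, and Lyz2 lay far above all of them.

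**Figure D3:**
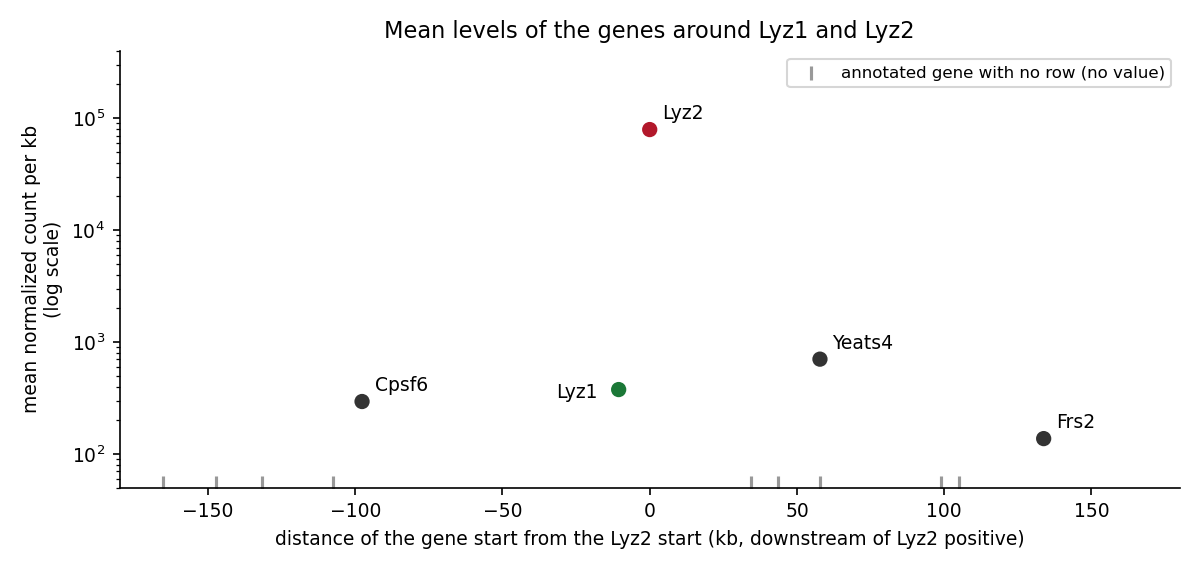
Mean normalized count per kb of transcript (log scale) of the genes with a row around the lysozyme genes, against the distance of their starts from the Lyz2 start in kb. Lyz2 stands at 79128 per kb and Lyz1, 10.5 kb away, at 377 per kb, between Cpsf6 at 295 and Yeats4 at 705, while ticks mark annotated genes without a value.

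Lysozyme is a granule protein of neutrophils, and the level of Lyz2 lay above every listed gene of the azurophil granules. It lay within the range of the genes for specific and gelatinase granules, from 2438 to 184077 per kb. That range is wide, covering ranks 6 to 626 per kb among all rows. Lying within it does not assign Lyz2 to a granule type. Of 12 genes of specific and gelatinase granules, 3 exceeded Lyz2 per kb, which were Ngp at 184077, Lcn2, which binds bacterial siderophores, at 143112, and Camp, the precursor of an antimicrobial peptide, at 96251. Ltf, which encodes the iron-binding lactoferrin, was nearest to Lyz2 at 75694 per kb, or 0.957 of its level. The collagenase gene Mmp8 had 34070 per kb. The median of the list was 32791 per kb, and all 12 genes lay above Lyz1.

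All 9 azurophil granule genes lay below Lyz2. The highest was Ctsc, which activates granule proteases, at 2506 per kb. The proteases Prtn3 and Elane had 1766 and 1720 per kb, Mpo, the myeloperoxidase, had 1482, and Ctsg was nearest to Lyz1 at 558 per kb. Bpi, at 0.332 per kb, was the only gene of the 9 below Lyz1.

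Among 8 genes of pathogen recognition and antibacterial defense, 2 exceeded Lyz2, Lcn2 and Camp, which the preceding list also holds. Pglyrp1, a peptidoglycan-binding protein of neutrophil granules, had 27688 per kb, 0.350 of the level of Lyz2. Pglyrp2, an amidase that also cuts peptidoglycan, had 62.8 per kb and lay below Lyz1. None of 13 lysosomal genes reached Lyz2. Psap, the precursor of the saposins, was highest at 28458 per kb, followed by the protease gene Ctsd at 19915. Of the 10 genes listed for the lysozyme family, Lyz1 and Lyz2 were those with a row, and the other 8 were not analysed here.

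**Figure D4:**
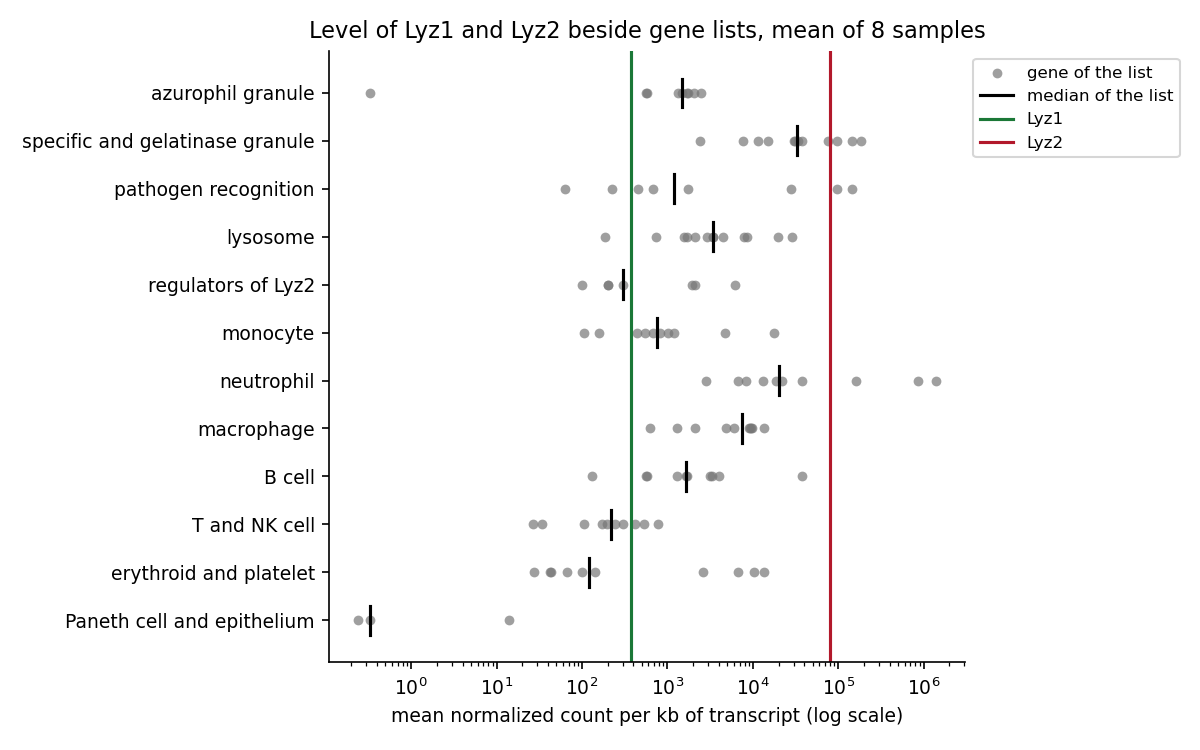
Level per kb of transcript (log scale, mean of 8 samples) of each gene with a row in 12 lists, with the median of each list as a black bar and the levels of Lyz1 (green, 377) and Lyz2 (red, 79128) as lines. Lyz2 is exceeded by 3 genes each of the specific granule and neutrophil lists and by 2 of pathogen recognition, whereas Lyz1 lies below every gene of the neutrophil, macrophage and specific granule lists.

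Markers of the sorted cells and of other cell types were set beside the lysozyme genes, because Lyz2 is known from several of them. All 10 neutrophil markers lay above Lyz1, and 3 of them, S100a9 at 1397989 per kb, S100a8 at 850452 and Retnlg at 163496, lay above Lyz2. For comparison, 83.2% of the 23004 rows with a length lay below Lyz1, and 15 lay above Lyz2. Ly6g, the antigen of the granulocytic sort, had 8346 per kb. Of 10 monocyte markers, 8 lay above Lyz1 and none above Lyz2, with Ly6c2, which encodes the antigen of the monocytic sort, highest at 17534 and Csf1r, the receptor of macrophage growth factor, at 4714 per kb. The markers of both sorted subsets were thus present in the mean.

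Genes listed as markers of other cell types were present as well, and the pooled mean does not show which cells made their transcripts. All 10 macrophage markers lay between Lyz1 and Lyz2, with a median of 7529 per kb and Hmox1, which degrades heme, highest at 13595. The 10 B cell markers had a median of 1671 per kb, and Ighm, the heavy chain of IgM, reached 37764 per kb. The T and NK cell markers had a median of 221 per kb, below Lyz1, and 3 of the 10 lay above it. The markers of erythroid cells and platelets had a median of 122 per kb, but 4 of the 10, all of them hemoglobin genes, lay above Lyz1. Their levels ran from 2633 per kb for Hbb-bt to 13663 per kb for Hbb-bs, and the near-identical hemoglobin copies can share reads. What part macrophages or the other cells have in the Lyz2 level was not tested, and in bulk samples fewer cells of a type and less RNA per cell cannot be told apart.

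Genes of the Paneth cell and the gut epithelium, where Lyz1 is best known, were set beside it as well. Of 6 such genes 3 had a row, and all 3 lay below Lyz1. Most rows did so as well, since 83.2% of all rows with a length lay below Lyz1 per kb. Epcam, an epithelial adhesion protein, had a mean count of 28.3 and a level of 13.9 per kb, below the median row. Krt8, a keratin, had 0.327 per kb. Itln1, an intestinal lectin, had a mean of 0.275, which decodes as 2 counts in all, from 2 samples. The Paneth cell defensins of the list, Defa24 and Defa21, and the protease gene Mmp7 were not analysed here.

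The gene targeted in these mice, Lmna, had a mean count of 79.5 over the 8 samples, or 25.2 per kb, close to the median row. Its transcript was thus far below that of Lyz2, whose regulatory region drives the recombinase. As for the lysozyme genes, the mean pools lamin A/C-deficient with wt cells, so it gives no check of the deletion. The mean also pools both subsets, and the paper reports that granulocytic cells clearly lack lamin A/C compared with monocytic cells. It is therefore not a level of either subset.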

How the data were processed

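RNA was sequenced from 8 samples of sorted splenic myeloid cells. According to the methods and the submitters' processing notes, the authors removed adapters (Cutadapt 1.14), mapped to mm10 (STAR 2.5.2b, 2-pass mode), quantified genes with RSEM 1.3.0 and GENCODE M12, and used DESeq2 1.20.0. The signal used here is the deposited mean per gene of counts divided by size factors. The other 6 value columns (log2 fold change, its standard error, test score, p-value, adjusted p-value and signed fold change) are the authors' own comparison and were not used. The planned count test needs values per sample and was replaced by description.

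The members and the gene lists were chosen with earlier results of these data known. Named genes are Lyz1 and Lyz2, Lmna, listed genes that are highest in their list or nearest to a member, genes within 200 kb, and those next in rank; some genes that this rule names are not reported here. Other listed genes and the promoter motifs were chosen after values were seen. For 28 symbols in several rows, the highest mean was used. Of 23084 IDs, 23004 matched GENCODE M21 (GRCm38), which gave positions and the length of the longest coding transcript.

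Sample weights were recovered as the steps between the 1000 smallest distinct means whose pair sums were also observed. The method was tested on simulated data. Python 3.11.15, numpy 2.4.6, networkx 3.6.1 and Biopython 1.88 were used.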

Additional observations from a re-analysis of the deposited data

How the results depend on the processing

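No paired analysis was possible because the value used is 1 mean per gene, not a value for each library. The count test, DESeq2 as an alternative, the fit without a filter and leaving out single replicates could therefore not be run, and how far the level of either lysozyme gene rests on 1 library is unknown. Merged exons in place of the longest coding transcript gave the same levels, since each gene has 1 annotated transcript. Division by the coding length gave 1073 per kb for Lyz1 and 234531 per kb for Lyz2, and the ratio of Lyz2 to Lyz1 was then 219, as it was without division by length (219). The share of runs common to both genes depended on the length of the run. At 50 bases it was 16.1% for Lyz1 and 15.4% for Lyz2, at 100 bases 2.06% and 1.97%, and at 150 bases 0% for each. Among 15697 protein-coding rows 60.0% lay below Lyz1 and 99.9% below Lyz2 by mean count, against 72.2% and 99.9% of all rows, and by level per kb 83.2% lay below Lyz1. Reading the 2000 smallest distinct means in place of 1000 again gave 8 samples.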
